A study of Solenopsis invicta with 3 samples.

Results

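Antennal RNA-Seq libraries of polygyne *SB/SB* workers (hereafter P_BB) and monogyne *SB/SB* workers (M_BB) of the fire ant *Solenopsis invicta* were compared, which are 2 of the 3 libraries of the series. Both classes carried the same genotype at the social supergene and differed in the social form of their colony. The third library, from polygyne *SB/Sb* workers (P_Bb), served as a reference point. Each library was a pool of antennal cDNA from foraging workers of medium size out of 4 colonies. RNA of each colony had been amplified on its own with the NuGEN Ovation kit before pooling. P_BB and P_Bb workers were nestmates from the same 4 polygyne colonies, whereas M_BB workers came from 4 other, monogyne colonies (0 shared). Social form and colony therefore cannot be told apart. With 1 library per class no replicate test was possible, and every ratio below compares 2 libraries. Entries were compared where the normalized count averaged at least 10 across all 3 libraries, which left 9260 of the 19703 reference entries, called genes below. A normalized count is the estimated number of read pairs of an entry divided by the size factor of its library.

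Monogyne fire ant colonies hold a single egg-laying queen and polygyne colonies hold several. The difference is tied to a supergene, a chromosomal region that is inherited as a unit in the variants *SB* and *Sb*. Monogyne workers are all *SB/SB*, while polygyne colonies hold both *SB/SB* and *SB/Sb* workers, so *SB/SB* workers allow the social forms to be compared within a genotype. Insect antennae carry the olfactory sensilla. In these, odorant-binding proteins carry hydrophobic odors through the lymph and odorant receptors on the nerve cells respond to them together with a shared co-receptor. Long-chain hydrocarbons on the cuticle, which are made from fatty acids by elongases, desaturases and fatty acyl reductases, are a main source of such odors in ants.

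The estimated counts summed to 3421923 in P_BB, 3948464 in M_BB and 3351500 in P_Bb. The size factors were 0.958, 1.11 and 0.938 in that order. Odorant receptor entries, the markers of antennal olfactory neurons used here, held 0.794% of the counts in P_BB, 0.696% in M_BB and 0.765% in P_Bb, and 370 of 473 such entries passed the filter. Reads of the most abundant receptor entry, SiOR1_co, were divided with SINVm1_gene_03620, which is not counted in these shares. The sum of both entries went the other way, with 5110 normalized counts in P_BB, 6671 in M_BB and 4613 in P_Bb. Pairs of entries that divide reads were inferred as described below. Both blood cell markers were taken from the study's list of genes higher in monogyne workers, drawn from the same cDNA, and are no independent sign of cell content. The summed normalized count of the 2 entries, pro-phenol oxidase subunit 2 and croquemort-like, was 239 in P_BB, 651 in M_BB and 289 in P_Bb, and neither entry was at 0 in any library. The part of blood cells in the results below was not tested. In pooled antennae, fewer cells of a type and less RNA per cell cannot be told apart.

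Most genes had similar counts in both *SB/SB* libraries. The ratio of P_BB to M_BB lay within 1.2-fold for 59.1% of the genes and within 1.5-fold for 86.3%, and the median log2 ratio was 0.01. At least 2-fold apart were 384 genes (4.15% of those compared), of which 168 (1.81%) were higher in P_BB and 216 (2.33%) were higher in M_BB. Low counts carried most of these. Genes with a mean count from 10 to below 20 made up 190 of the 384, and 16.1% of the genes in that range were 2-fold apart, against 1.14% of those with a mean from 100 to below 200. Among the 4867 genes with a mean of at least 100, 32 were 2-fold apart (0.657%). Of these, 7 (0.144%) were higher in P_BB and 25 (0.514%) were higher in M_BB. The total of 384 was 220 with a pseudocount of 5 in place of 1. With the deposited TPM it was 951 over the 11218 entries with a mean TPM of at least 1, and 265 over the 9260 genes of the main filter.

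**Figure D1:**
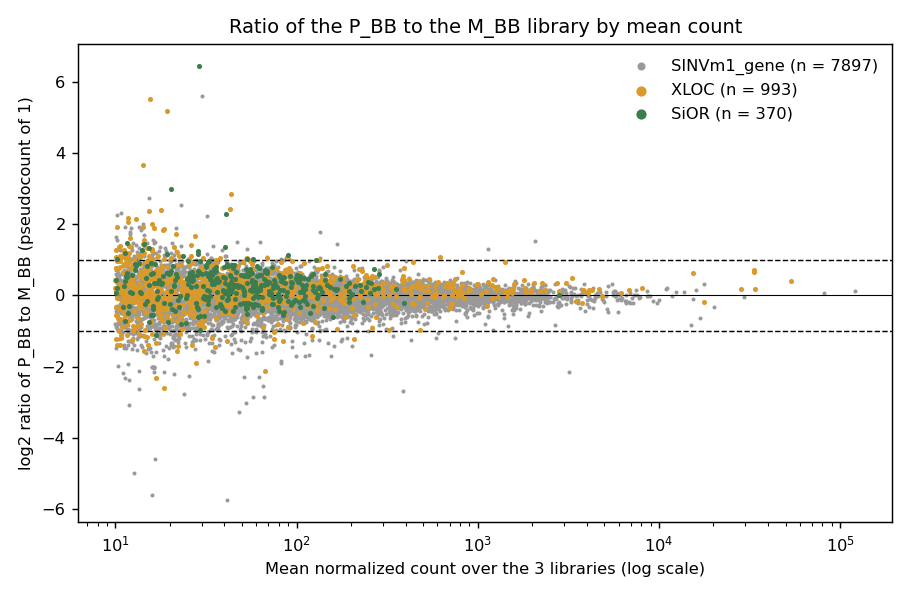
Log2 ratio of P_BB to M_BB (vertical axis, pseudocount of 1) against the mean normalized count over the 3 libraries (horizontal axis, log scale) for 9260 genes, colored by kind of entry. Dashed lines mark 2-fold. Points beyond the lines are mostly at low counts, and past a mean of 100 there are 25 below the lower line and 7 above the upper line.

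Ratios of single genes are given with exact 95% intervals (Clopper-Pearson) from the counts of both libraries. The cDNA was amplified and molecular identifiers were not used, hence these intervals cover counting error only. They take the estimated counts as exact and do not cover error from the division of reads between similar entries. The interval excluded 1 for 2299 genes (24.8%), of which 1093 were higher in P_BB and 1206 were higher in M_BB. It lay wholly beyond 2-fold for 58 genes, 16 (0.173%) higher in P_BB and 42 (0.454%) higher in M_BB.

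Of the 25 genes higher in M_BB with a mean of at least 100, 3 are on the study's lists and so carry an annotation here. Of these, 2 belong to fatty acid metabolism. The annotations used here cover only genes on those lists, so the functions of the others were not looked up. The acyl-delta desaturase-like gene SINVm1_gene_14166, an enzyme class that places double bonds in fatty acyl chains, had 128 normalized counts in P_BB, 830.4 in M_BB and 199 in P_Bb. M_BB was 6.49-fold above P_BB (95% interval 5.35 to 7.87), and both polygyne libraries were low. The fatty acyl-reductase gene SINVm1_gene_01163, of a class that turns fatty acids into alcohols, had 115 in P_BB, 282 in M_BB and 131 in P_Bb, a 2.46-fold difference (1.97 to 3.08). Pro-phenol oxidase subunit 2 (SINVm1_gene_02300), the precursor of the enzyme that starts melanin formation in insect blood, had 146, 466 and 161 normalized counts. It was 3.19-fold higher in M_BB (2.64 to 3.87), and again P_Bb lay close to P_BB. All 3 genes are on the list of social form genes that the study drew from further aliquots of this amplified cDNA, which means that their direction here is not independent of that choice.

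The most abundant gene higher in M_BB was SINVm1_gene_13864, for which the study gives no annotation. It had 1528 normalized counts in P_BB, 6827 in M_BB and 1196 in P_Bb, a 4.47-fold difference between the *SB/SB* libraries (4.23 to 4.73). In TPM, a unit scaled by transcript length and library total that allows levels of different genes to be compared, it reached 2937 in M_BB and 654 in P_BB. Further genes of high count outside the study's lists were also higher in M_BB. SINVm1_gene_07959, SINVm1_gene_05171 and SINVm1_gene_07994 had between 952 and 1143 normalized counts in M_BB and between 442 and 495 in P_BB. SINVm1_gene_13824 and SINVm1_gene_04574 had 693 and 535 in M_BB against 288 and 241 in P_BB. In all 5 of these genes P_Bb lay nearer to P_BB than to M_BB, between 247 and 624 normalized counts. Several long transcripts were among the lower ones. SINVm1_gene_01130, 10269 bases long, had 89.7 normalized counts in P_BB, 294 in M_BB and 78.9 in P_Bb, a 3.27-fold difference (2.58 to 4.20). SINVm1_gene_13844 (6198 bases) was 2.68-fold higher in M_BB (2.11 to 3.41), and SINVm1_gene_01241 (6306 bases) was 2.32-fold higher (1.87 to 2.90).

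Exceptions in the place of P_Bb were few among these 25 genes. P_Bb lay nearer to M_BB for SINVm1_gene_02960, XLOC_016844 and SINVm1_gene_02859. For SINVm1_gene_02859, the gene nearest to the 2-fold limit, the counts were 168 in P_BB, 337 in M_BB and 242 in P_Bb. Just under the limit stood SINVm1_gene_03618, with 159 and 316 normalized counts in P_BB and M_BB. The remaining genes of the 25, among them SINVm1_gene_13295 (3.23-fold), SINVm1_gene_07307 (2.68-fold) and SINVm1_gene_09021 (2.57-fold), had from 151 to 307 normalized counts in M_BB.

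**Figure D2:**
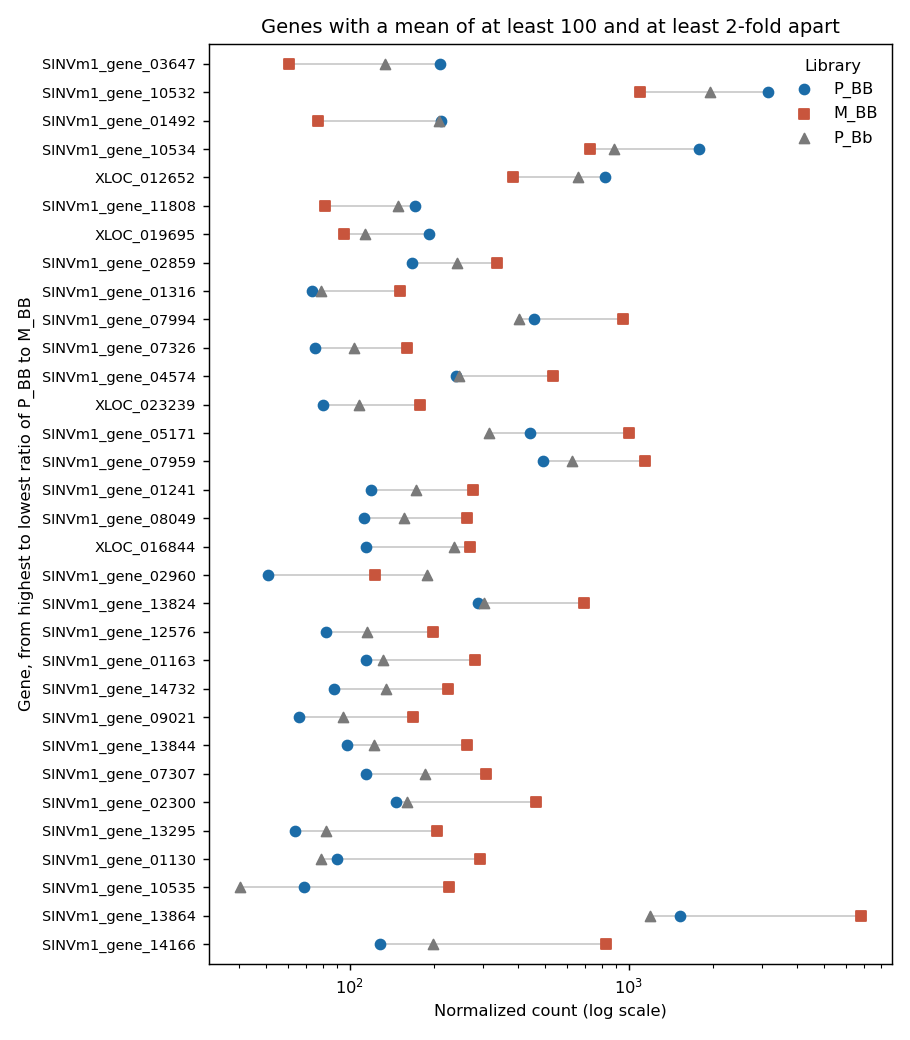
Normalized counts (horizontal axis, log scale) of the 32 genes with a mean of at least 100 that were at least 2-fold apart, in P_BB (circles), M_BB (squares) and P_Bb (triangles), ordered by the ratio of P_BB to M_BB. For the 25 genes higher in M_BB, P_Bb sits nearer to P_BB in 22, and for the 7 genes higher in P_BB it does so in 5.

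Higher in P_BB at this depth were 7 genes. SINVm1_gene_10532 had 3160 normalized counts in P_BB, 1101 in M_BB and 1962 in P_Bb, a 2.87-fold difference (2.68 to 3.07). SINVm1_gene_10534 had 1791, 729.8 and 888 normalized counts in that order, a 2.45-fold difference (2.26 to 2.67). P_Bb was thus between the other libraries for both, nearer to P_BB for the first and nearer to M_BB for the second. SINVm1_gene_03647, a model of 273 bases, had 210.4, 60.4 and 134 normalized counts, which made P_BB 3.48-fold higher (2.64 to 4.69). SINVm1_gene_01492 had 213, 77.3 and 209 normalized counts, a 2.76-fold difference (2.13 to 3.59), with both polygyne libraries at the same level. XLOC_012652, a transcript model of 6838 bases that is also on the social form list, had 822, 385 and 661 normalized counts and was 2.14-fold higher in P_BB (1.90 to 2.41). SINVm1_gene_11808 was 2.09-fold higher (1.61 to 2.74). The last gene, XLOC_019695, was 2.02-fold higher on its own (1.58 to 2.59), but it divides its reads with XLOC_019763, and the sum of both entries was 2574 in P_BB and 2237 in M_BB, a log2 ratio of 0.20.

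One step lower in abundance were 1552 genes with a mean from 50 to below 100. Of these, 32 were at least 2-fold higher in M_BB and 15 in P_BB, together 3.03% of the range. Over all genes 4.15% were 2-fold apart, 2.33% higher in M_BB and 1.81% higher in P_BB. The interval lay wholly beyond 2-fold for 14 of the 1552, and all 14 were higher in M_BB (0 were higher in P_BB). They were looked up after their values were seen. SINVm1_gene_00260, a transcript of 13341 bases, had 14.6 normalized counts in P_BB, 126 in M_BB and 18.1 in P_Bb, an 8.61-fold difference (4.96 to 16.2). SINVm1_gene_05380 had 24.3, 146 and 26.7 normalized counts, a 5.99-fold difference (3.9 to 9.84). SINVm1_gene_01431 had 20.9, 107 and 25.6 (5.12-fold, 3.17 to 8.69). P_Bb lay nearer to P_BB in 13 of the 14 genes, against 52.9% of all genes in this range. The exception was SINVm1_gene_01740, which divides its reads with the odorant receptor entry SiOR55. Reads were divided in 4 of the 14, as the standard deviation that RSEM gives for each count (its posterior) reached 1 count. In 10 it was below 1 in both libraries. Among the 4, XLOC_000832 divides its reads with XLOC_000831, and the sum of both was 402 in P_BB and 348 in M_BB. The sum of SINVm1_gene_01740 and SiOR55 was 352 in P_BB and 307 in M_BB. Both sums were thus higher in P_BB, although XLOC_000832 and SINVm1_gene_01740 alone were higher in M_BB.

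Some genes were read in one *SB/SB* library and at or near 0 in the other. At most 3 counts in M_BB and a higher level in P_BB were found for 16 of the 9260 genes. At most 3 counts in P_BB with a higher level in M_BB were found for 12. Where reads were not divided, the clearest were SINVm1_gene_02188 and XLOC_012911. SINVm1_gene_02188 was counted 54 times in M_BB, 1 time in P_BB and not at all in P_Bb (0), a ratio of 46.5 with an interval from 7.999 to 1870.3. XLOC_012911 was counted 34 times in P_BB and 21 times in P_Bb but not in M_BB (0), which made P_BB at least 13.2-fold higher when M_BB is set to 3 counts, while the exact interval of the ratio has a lower bound of 10.1. In both, the polygyne libraries were on the same side. SINVm1_gene_14332 had 17.6 normalized counts in P_BB, 1.797 in M_BB and 26.6 in P_Bb (9.81-fold, 2.34 to 88.1). SINVm1_gene_13675 had 2.50, 28.6 and 4.69 in that order. The other entries with the highest counts of this kind had a posterior standard deviation above 10 counts in at least one library, so no fold is given for them. Of these, SINVm1_gene_10898 had 47.5 normalized counts in P_BB and 42.8 in P_Bb and was listed at 0 in M_BB, while SINVm1_gene_10902, of nearly the same length (396 against 393 bases), had 48.0 in M_BB and was listed at 0 in both polygyne libraries.

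The P_Bb library, from the colonies of P_BB but of the other genotype, lay nearer to P_BB than to M_BB on the log2 scale for 56.9% of all genes. Of the 384 genes 2-fold apart it lay nearer to P_BB in 237, which were 126 of the 168 higher in P_BB and 111 of the 216 higher in M_BB. The filter on the mean of 3 libraries keeps weak genes more readily where P_Bb is high. With the filter set on P_BB and M_BB only, the numbers were 105 of 158 and 126 of 216. Among genes with a mean of at least 100 the background was 60.5%, and P_Bb lay nearer to P_BB in 27 of the 32. In 5 of the 25 genes higher in M_BB, among them SINVm1_gene_13864 and SINVm1_gene_10535, P_Bb was lower than both *SB/SB* libraries, and for SINVm1_gene_02960 it was higher than both.

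The study's list of social form genes was then followed by role. It was drawn from separately sequenced aliquots of the same cDNA, and is therefore not independent evidence of direction. Among its 26 SINVm1_gene identifiers were 23 above the filter, and P_BB and M_BB differed in the listed direction for 21 of them, 13 of 14 listed as higher in monogyne workers and 8 of 9 listed as higher in polygyne workers. Counted in the listed direction, the median was 0.36 on the log2 scale, beside a median of 0.01 for P_BB to M_BB over all genes. A difference of at least 2-fold in that direction was found for SINVm1_gene_14166, SINVm1_gene_02300, SINVm1_gene_01163 and SINVm1_gene_03610, and for SINVm1_gene_10721, which passed the filter only through its count in P_Bb. With the filter on P_BB and M_BB only, 20 of 22 listed genes had the listed direction. The share of all genes past 2-fold in either direction was 4.15%.

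Of 4 genes of lipid metabolism on the list, all listed as higher in monogyne workers, 3 passed the filter and had that direction. Beside the desaturase and the reductase, the glycerol-3-phosphate acyltransferase 3-like gene (SINVm1_gene_01650), of an enzyme class that begins glycerolipid synthesis, had 236 normalized counts in P_BB, 291 in M_BB and 199 in P_Bb. It was 1.23-fold higher in M_BB (1.04 to 1.47), far less than the other lipid genes. The fatty acid synthase entry SINVm1_gene_00676 had 1 count in M_BB and 0 in the other libraries, so a difference was not detectable at this depth. Of the 2 blood cell markers, croquemort-like (SINVm1_gene_06423), related to a scavenger receptor of phagocytes in *Drosophila*, had 92.9, 185 and 128 normalized counts and was 1.99-fold higher in M_BB (1.55 to 2.59), just under the 2-fold limit.

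Genes of sugar and xenobiotic metabolism went both ways, each as listed. The alpha,alpha-trehalose-phosphate synthase gene (SINVm1_gene_03610), whose product makes the precursor of trehalose, the blood sugar of insects, had 31.3 normalized counts in P_BB, 77.3 in M_BB and 57.6 in P_Bb. It was 2.47-fold higher in M_BB (1.61 to 3.88), with P_Bb between the other libraries. The UDP-glucuronosyltransferase 2B30-like gene (SINVm1_gene_04127), of a family that attaches sugars to small lipophilic molecules, had 1987, 2445 and 2075 normalized counts, a 1.23-fold difference (1.16 to 1.31). The esterase FE4-like gene (SINVm1_gene_00238) was 1.10-fold higher in P_BB (1.01 to 1.19) and iduronate 2-sulfatase (SINVm1_gene_10049) was 1.09-fold higher in P_BB, with an interval from 0.95 to 1.25 that includes 1. Of the transporters, ABC transporter subfamily G member 1 (SINVm1_gene_12498) had 65.7, 122 and 81.1 normalized counts and was 1.86-fold higher in M_BB (1.37 to 2.55). The MFS-type transporter (SINVm1_gene_03418) was 1.14-fold higher in M_BB, with an interval from 0.86 to 1.53.

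Among the other listed genes higher in M_BB, the exonuclease gene SINVm1_gene_04716 had 102 normalized counts in P_BB, 164 in M_BB and 93.8 in P_Bb (1.61-fold, 1.25 to 2.08). Polyadenylate-binding protein 1 (SINVm1_gene_12026), which binds the poly(A) tails of messenger RNA, had 3942, 5051 and 4015 normalized counts. Its ratio of 1.28 was small but had a narrow interval (1.23 to 1.34), and both polygyne libraries were at the same level. Guanylate cyclase 32E (SINVm1_gene_02017) was 1.22-fold higher in M_BB (1.02 to 1.45). The uncharacterized SINVm1_gene_07970 was 1.17-fold higher in M_BB, with an interval from 0.97 to 1.42 that includes 1. Of the genes listed as higher in polygyne workers, the ankyrin repeat and LEM domain gene SINVm1_gene_04300 had 237, 157 and 255 normalized counts (1.51-fold higher in P_BB, 1.23 to 1.85). The ribosomal RNA-processing gene SINVm1_gene_04713 was 1.348-fold higher in P_BB (1.19 to 1.52). COP9 signalosome subunit 2 (SINVm1_gene_01363) was 1.15-fold higher in P_BB, with an interval from 0.96 to 1.39 that includes 1. SINVm1_gene_10721, annotated as the deoxyribonuclease TATDN1, had 6 counts in P_BB, 1 in M_BB and 25 in P_Bb, and its ratio of 6.97 had an interval from 0.85 to 320.5. The 2 genes against the listed direction were both uncharacterized. SINVm1_gene_10887 had 12.0 and 8.21 normalized counts in P_BB and M_BB (1.47-fold higher in P_BB, 0.60 to 4.16). SINVm1_gene_14059 had 1359 and 1494, and its 1.10-fold difference toward M_BB had an interval that excludes 1 (1.02 to 1.18).

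**Figure D3:**
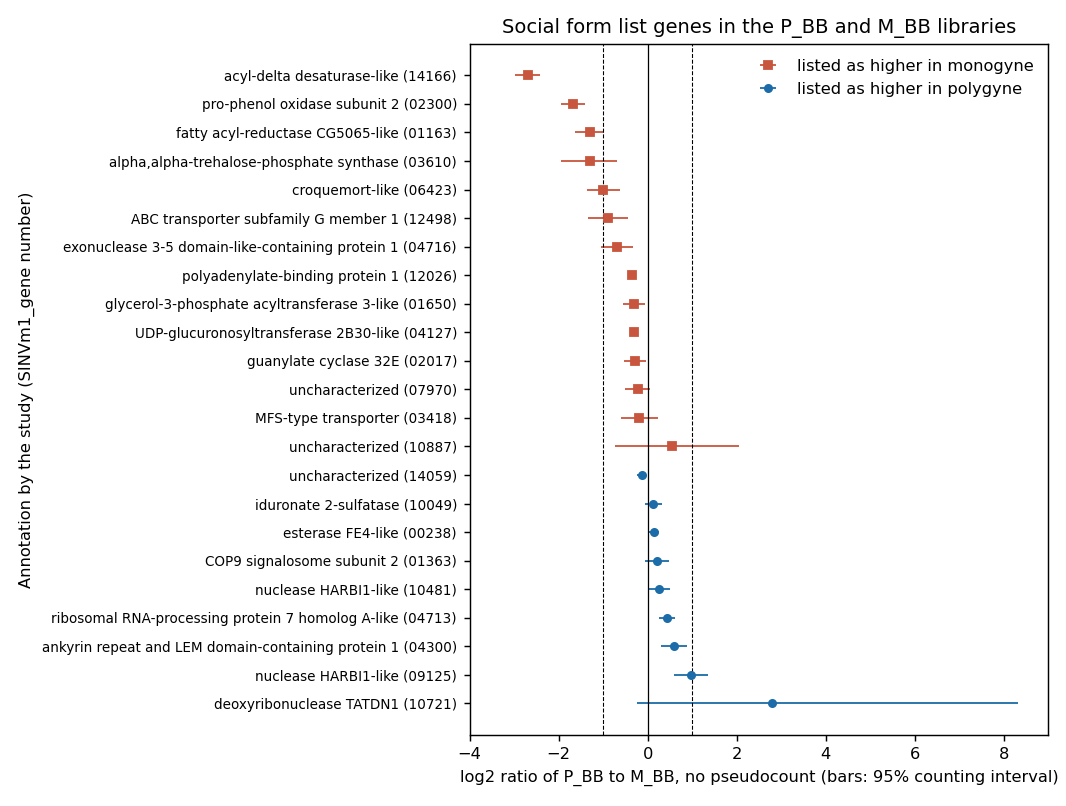
Log2 ratio of P_BB to M_BB without a pseudocount (horizontal axis) for the 23 social form list genes that passed the filter, with exact 95% counting intervals (bars), colored by the direction listed by the study. Dashed lines mark 2-fold. Of 14 genes listed as higher in monogyne workers 13 lie left of 0, and of 9 listed as higher in polygyne workers 8 lie right of 0.

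The list also names 17 transcript models by XLOC identifier, which were matched by identifier only. Whether an identifier names the same transcript here was not tested, and the listed XLOC_043759 and XLOC_041335 had 0 counts in P_BB, M_BB and P_Bb. Of the 17, 5 passed the filter, all listed as higher in polygyne workers and all higher in P_BB. XLOC_030870, annotated as an AAA ATPase, had 148 normalized counts in P_BB, 78.2 in M_BB and 103 in P_Bb (1.89-fold, 1.44 to 2.50). XLOC_042434, annotated under that identifier as DnaJ homolog subfamily B member 6-like, had 1900 normalized counts in P_BB, 1647 in M_BB and 1897 in P_Bb (1.15-fold, 1.08 to 1.23). XLOC_034835 had 46.3 normalized counts in P_BB and almost none in M_BB (0.04), but it divides its reads with XLOC_034816, and the sum of both was 345 in P_BB and 261 in M_BB. The other 2 were XLOC_012652, described above, and XLOC_011724, whose 1.25-fold difference had an interval from 0.70 to 2.25.

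Transposable elements move within genomes by means of transposases and nucleases of their own. Of 16 entries in the study's lists that it annotates as parts of such elements, XLOC identifiers included, 10 were below the filter. Of 8 such SINVm1_gene entries in the study's lists, 5 passed the filter. P_BB was above M_BB in 4 of these and below in 1, and their median log2 ratio was 0.25. Without the filter the median over all 8 was 0.04. Over all genes P_BB was above M_BB in 51.0%, with a median of 0.01. SINVm1_gene_09125 and SINVm1_gene_10481 are also among the social form genes listed as higher in polygyne workers. Their direction is therefore not independent of that list. The nuclease HARBI1-like gene SINVm1_gene_09125 had 166 normalized counts in P_BB, 84.5 in M_BB and 102 in P_Bb, a 1.96-fold difference (1.51 to 2.56). Another of that annotation, SINVm1_gene_00196, had 81.4, 48.3 and 61.9 (1.68-fold, 1.17 to 2.42), whereas SINVm1_gene_10777 differed little, with 217, 210.4 and 320.1. A further one, SINVm1_gene_10481, had 295, 248 and 421. The HARBI1-like SINVm1_gene_00935, which passed the filter only through P_Bb, was the one lower in P_BB, with 2.18, 6.89 and 57.3 normalized counts and an interval that includes 1 (0.69 to 33.3 for M_BB over P_BB). XLOC_003144, annotated under that identifier as a Tc1 transposase, had 1579 normalized counts in P_BB, 1154 in M_BB and 906 in P_Bb (1.37-fold, 1.27 to 1.48).

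Odorant receptor entries were shifted toward P_BB as a group. P_BB was above M_BB in 266 of the 370 entries (71.9%), against 51.0% of all genes, and the median log2 ratio was 0.27. The shift was present at each level of expression, with medians of 0.36 in the 60 entries with a mean count from 10 to below 20, 0.36 in the 131 from 20 to below 50, 0.21 in the 114 from 50 to below 100 and 0.19 in the 65 of at least 100. The interval of the ratio excluded 1 for 73 entries higher in P_BB and 8 higher in M_BB, against 1093 and 1206 of the 9260 genes. At least 2-fold apart were 17 entries higher in P_BB (4.59%) and 1 higher in M_BB (0.270%), against 1.81% and 2.33% of all genes. In either direction the share was 4.86% of the receptor entries and 4.15% of all genes. None of the 65 entries with a mean of at least 100 was 2-fold apart (0 of 65). Official gene set entries of like length, from 873 to 1233 bases, had a median of 0.01 (n = 1223).

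The summed normalized count over all 473 receptor entries was 28339.8 in P_BB, 24697 in M_BB and 27326 in P_Bb, a ratio of 1.15 of P_BB to M_BB. SiOR1_co, the most abundant receptor entry, did not share the shift. It had 3086 normalized counts in P_BB, 3072 in M_BB and 2248 in P_Bb, or 656 and 657 TPM in the *SB/SB* libraries. Its reads were divided with SINVm1_gene_03620, and the posterior standard deviation of the count was between 719 and 1244. The sum of both entries was 5110 in P_BB, 6671 in M_BB and 4613 in P_Bb, a ratio of 0.766 of P_BB to M_BB (0.739 to 0.794). SINVm1_gene_03620, with 2023 normalized counts in P_BB and 3599 in M_BB, is not part of the receptor sums. The ratio of 1.15 therefore depends on how these reads were divided. Without SiOR1_co, the ratio of the receptor sums was 1.17. The next most abundant entries were far lower. SiOR251 had 101 TPM in P_BB and 117 in M_BB, and SiOR211 had 104 and 91.8. Among the 12 entries with the highest mean TPM, SiOR292 had the largest ratio, with 315 normalized counts in P_BB, 189 in M_BB and 304 in P_Bb, a 1.67-fold difference (1.40 to 2.00). SiOR55, SiOR350 and SiOR39 were also higher in P_BB, by 1.54-fold (1.30 to 1.82), 1.30-fold (1.09 to 1.55) and 1.29-fold (1.08 to 1.54). However, SiOR55 divides its reads with SINVm1_gene_01740, and the sum of both had a ratio of 1.14 with an interval that includes 1 (0.98 to 1.33).

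**Figure D4:**
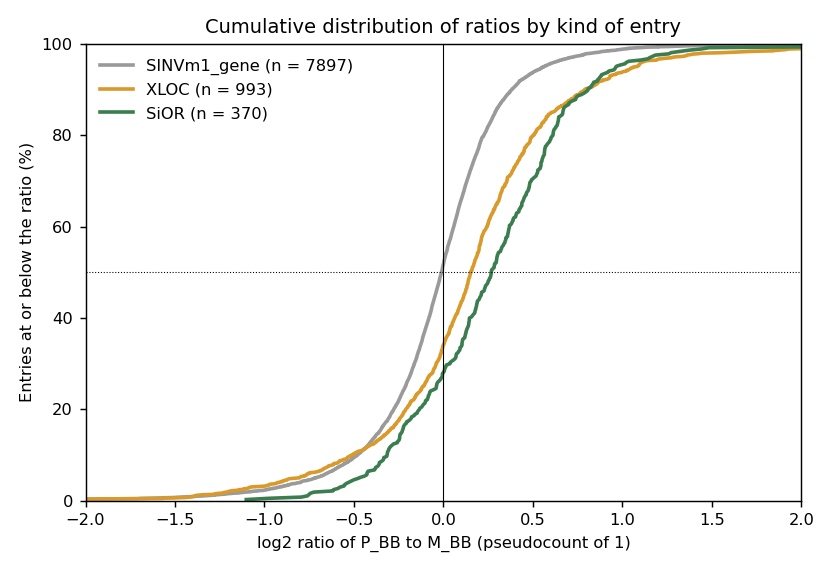
Cumulative share of entries (vertical axis, in percent) at or below each log2 ratio of P_BB to M_BB (horizontal axis, pseudocount of 1) for official gene set, XLOC and odorant receptor entries. The curves cross 50% at -0.01, 0.15 and 0.27 in that order.

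Of the receptor entries that were 2-fold apart, those with the largest ratios were SiOR280, SiOR17, SiOR436, SiOR87 and SiOR443 in favor of P_BB and SiOR421 in favor of M_BB. SiOR17 had 33.3 normalized counts in P_BB, 3.32 in M_BB and 24.1 in P_Bb, a log2 ratio of 2.99, and the interval of the ratio ran from 3.29 to 36.2. SiOR443 had 20.4, 6.88 and 15.6 (2.97-fold, 1.23 to 7.62). SiOR421 had 9.88, 22.4 and 18.0 (2.26-fold higher in M_BB, 1.08 to 5.82). In each of these P_Bb lay between the *SB/SB* libraries. SiOR178 had the highest count among the entries 2-fold apart, with 119 normalized counts in P_BB, 53.2 in M_BB and 98.4 in P_Bb (2.23-fold, 1.62 to 3.13), and was picked out after its values were seen. Reads of SiOR17, SiOR443, SiOR421 and SiOR178 were divided, which their intervals do not cover. For SiOR17 the posterior standard deviation was 2.11 in M_BB, on an estimated count of 3.7.

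Reads of many receptor entries were divided by RSEM between similar entries. The posterior standard deviation reached 1 count in 160 of the 370 receptor entries (43.2%), against 13.1% of all genes, and in 14 of the 18 that were 2-fold apart, where it ran from about 1 count, as in SiOR4 (1.16 in P_BB), to 16.2 in M_BB for SiOR280. The median log2 ratio was 0.27 over the 210 entries without divided reads and 0.26 over the other 160. Without divided reads, 4 entries were 2-fold apart. Entries that divide reads only with each other have equal posterior standard deviations. By this sign 126 pairs were taken as dividing reads, among all kinds (standard deviations within 1% in each of the 3 libraries). Their sequences and alignments were not checked, so the pairing is inferred. At least one entry was 2-fold apart in 23 of the pairs. When both entries were summed, 21 of these 23 pairs were under 2-fold and 2 were not.

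SiOR280 was the plainest case. It had 86.6 normalized counts in P_BB and was listed at 0 in M_BB and P_Bb, whereas its partner SINVm1_gene_14573 was listed at 0 in P_BB and had 53.0 in M_BB and 71.5 in P_Bb. The sum was 86.6 in P_BB, 53.0 in M_BB and 71.5 in P_Bb, a log2 ratio of 0.70. SiOR436 had 53.1 normalized counts in P_BB and 10.1 in M_BB, and with SINVm1_gene_15201 the sums were 55.5 and 37.7, a log2 ratio of 0.54. SiOR427 with SINVm1_gene_09147 summed to 114 and 81.8, a log2 ratio of 0.47. In these 3 cases the sum was higher in P_BB, by less than the receptor entry alone. SiOR426 with SINVm1_gene_13242 summed to a log2 ratio of 0.94. SiOR87 with SINVm1_gene_02170 stayed 2-fold apart with 1.05, but the interval of the ratio includes 1 (0.87 to 5.93). The other pair that stayed 2-fold apart, SINVm1_gene_04706 with SiOR232, was higher in M_BB. Its sum was 10.4 in P_BB and 25.2 in M_BB, a log2 ratio of -1.19, and the interval of P_BB to M_BB ran from 0.18 to 0.88. SiOR232 was listed at 0 in each library. For SiOR55 it was the partner that was 2-fold apart. SINVm1_gene_01740 was higher in M_BB, and the sum of both was 352 in P_BB and 307 in M_BB, a ratio of 1.14 (0.98 to 1.33).

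**Figure D5:**
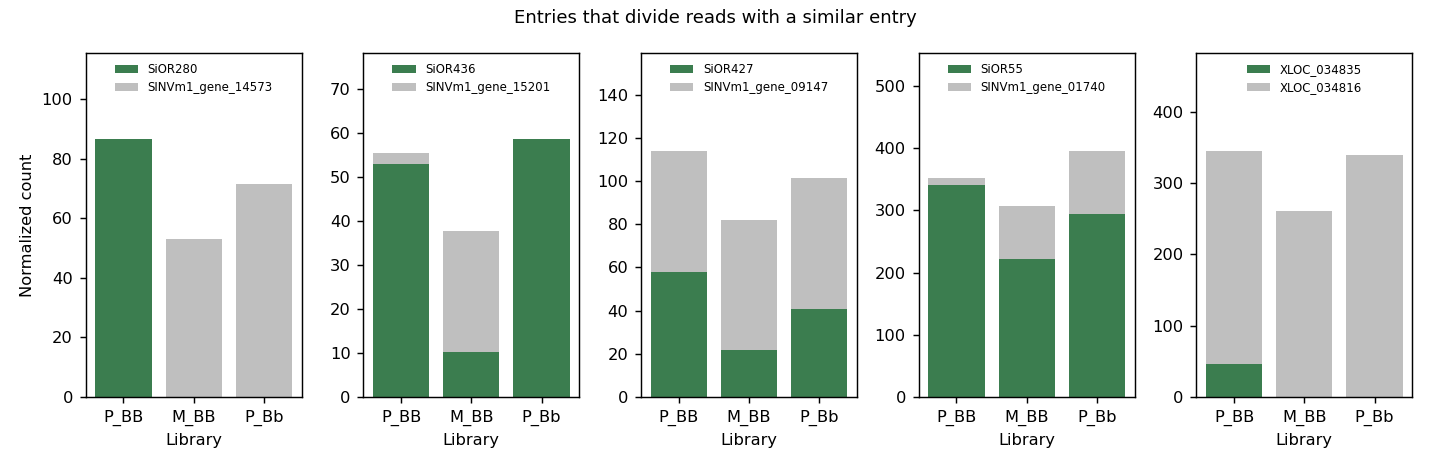
Normalized counts (vertical axis) of 5 pairs of entries inferred to divide reads, in P_BB, M_BB and P_Bb, with the 2 entries of a pair stacked so that the bar's height is their sum. In the first panel SiOR280 takes all 86.6 counts in P_BB and SINVm1_gene_14573 takes all 53.0 in M_BB and 71.5 in P_Bb.

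Transcript models outside the official gene set (XLOC) also leaned toward P_BB. P_BB was above M_BB in 655 of 993 (66.0%), the median log2 ratio was 0.15, and 61 (6.14%) were at least 2-fold higher in P_BB against 31 (3.12%) in M_BB. Without divided reads the median was 0.16 over 618 entries. The official gene set went the other way in its 2-fold counts, with 90 (1.14%) higher in P_BB and 184 (2.33%) higher in M_BB, though its median was -0.01 and P_BB was above M_BB in 48.1% of its entries. The 7 XLOC entries with a mean of at least 10000 summed to 253386 normalized counts in P_BB, 192918 in M_BB and 203673 in P_Bb, a ratio of 1.31 of P_BB to M_BB, and all other XLOC entries summed to 230175, 207917 and 220957, a ratio of 1.11. Of the 7, looked up after their values were seen, XLOC_043981, XLOC_043984 and XLOC_043982 were 1.65-fold, 1.58-fold and 1.54-fold higher in P_BB, and XLOC_014570 was 1.13-fold higher in M_BB. For the first 3 of these P_Bb lay between the *SB/SB* libraries and nearer to M_BB.

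Among the 3 entries with the highest mean TPM, differences between the *SB/SB* libraries were small. SINVm1_gene_06964 had 127705 TPM in P_BB and 122089 in M_BB, a ratio of normalized counts of 1.05. SINVm1_gene_06799 had 25808 and 20630 TPM, a ratio of 1.25 (1.23 to 1.28), and SINVm1_gene_03973 had 14225 and 13012, a ratio of 1.10.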

How the data were processed

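The deposited expected counts, or estimated counts, were made by the authors, who aligned read pairs of each pooled library with Bowtie to a set of transcripts and ran RSEM on the alignments. The submitters' processing notes name Bowtie2, and the versions the study states belong to its separately sequenced libraries, while those for the pooled libraries are not given in the sources used here. RSEM divides reads that fit several entries by expectation maximisation, so counts need not be whole. The reference held 15589 SINVm1_gene, 3641 XLOC and 473 SiOR entries. The deposited TPM values were made by the authors with RSEM from these counts and effective lengths, and the deposited posterior standard deviations served as a measure of divided reads. A deposited pattern file of the authors' own comparison was not used. Nor was the transcript model file, which shares no SINVm1_gene identifier with the tables (0), so positions are not given. No identifier matched the RefSeq table (0), so no sequence is shown. There were 0 columns of other series.

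Each library's counts were divided by their 75th percentile (all entries included) after these factors had been set to a geometric mean of 1. Log2 ratios use a pseudocount of 1, which understates the change of low genes, and folds and intervals use none. Intervals are 95% Clopper-Pearson intervals of counts rounded to whole numbers. With total counts of 3351500 to 3948464, a 2-fold ratio is within counting error near 10 counts. Libraries with at most 3 counts were treated as at the floor. The pooled samples give 1 library per class, so no p-value was computed.

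Named in the text or in figure labels are genes at least 2-fold apart with a mean of at least 100 (up to 25 per direction). The study's listed social form and transposable element genes past the filter are named too. So are the 5 receptor entries per direction with the largest ratios and up to 5 genes per direction at the floor in one library. Named last are 5 supergene genes of the study's list and the 3 entries with the highest mean TPM. Members and lists were chosen with earlier results of these data known. Alternatives were scaling by TMM (edgeR 4.0.16), median of ratios (DESeq2 1.42.0), totals and TPM (mean of at least 1), pseudocounts of 0.5 and 5, other filters, folds of 1.5 and 4, conditions on the interval, official genes only and a posterior standard deviation under 1. Scripts ran in Python 3.11.15 and R 4.3.3 and were tested on simulated data.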

Additional observations from a re-analysis of the deposited data

How the results depend on the processing

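No paired analysis was possible because there was only 1 library for each class, and no library could be left out. Summing of paired entries and inclusion of XLOC identifiers in the lists were chosen after seeing the data. Under TMM, median of ratios, totals and a pseudocount of 0.5, the 384 genes 2-fold apart became 387, 387, 387 and 409, and the receptor median lay between 0.26 and 0.27. The social form genes with the listed direction numbered 21 of 23 under each of the first 3. None of these scalings, TPM included, moved the median of all genes by over 0.1. Of the 32 genes with a mean of at least 100, 31 were shared with the 32 found under each of TMM, median of ratios and totals. Of 99 named genes with a value, 7 moved beyond their counting interval with a pseudocount of 5, as did 2 of the 98 with a mean TPM of at least 1 when TPM was used, and none changed sign while 2-fold apart.

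The number of genes 2-fold apart was 951 with TPM (11218 entries with a mean of at least 1), 220 with a pseudocount of 5, 2382 without a filter, 32 with a mean of at least 100, 1272 at 1.5-fold, 52 at 4-fold and 58 with the interval wholly beyond 2-fold. The share higher in P_BB, 43.8% in the main setting, was 57.0% without a filter, 32.9% with official genes only, 27.6% with the interval beyond 2-fold and 21.9% with a mean of at least 100. Those with P_Bb on the P_BB side, 237 in the main setting, were 493, 151, 1169, 27, 783, 35 and 47 in the order of the first sentence. Receptor entries 2-fold apart, 18 in the main setting, were 9 with a pseudocount of 5, 51 without a filter, 0 with a mean of at least 100, 91 at 1.5-fold, 3 at 4-fold, 3 with the interval wholly beyond 2-fold and 4 with a posterior standard deviation under 1. The receptor median was 0.19 with a mean of at least 100. Thresholds, filters and pseudocounts change these numbers by construction. With TPM over the 9260 genes of the main filter, an alternative chosen after seeing the data, 265 genes were 2-fold apart. With paired entries summed, 363 genes and 15 receptor entries were 2-fold apart and the receptor median was 0.27. With XLOC identifiers, 26 of 28 social form genes had the listed direction, and the transposable element median, 0.25 in the main setting, was 0.35. It was 0.49 with the filter on P_BB and M_BB only and 0.14 with TPM.

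Without replicates, the spread between pools of one class is unknown, and neither intervals nor 2-fold limits cover it. Amplification was done per colony before pooling, and its part was not tested. Near 10 counts, a 2-fold ratio lies within counting error.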

Other observations

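Of the genes that the study lists as different between supergene genotypes, 5 that lie in the supergene are given here. The odorant-binding protein entry SINVm1_gene_02111 (*SiOBP12*) had 8.35 normalized counts in P_BB and 14.4 in M_BB, and the interval of its 1.72-fold difference, from 0.70 to 4.65, includes 1. The coiled-coil gene SINVm1_gene_05144 had 20.9 and 35.9 (interval 0.98 to 3.11) and the NADH dehydrogenase entry SINVm1_gene_05175 had 14.6 and 7.19 (0.80 to 5.59). SINVm1_gene_05176, annotated as a ubiquitin-like domain-containing phosphatase, had 152 and 187 (0.99 to 1.53). SINVm1_gene_05326 was higher in P_BB, with 185 normalized counts against 132, a 1.40-fold difference (1.12 to 1.75). A further supergene gene on that list, outside the 5 chosen, was the receptor kinase Ror gene SINVm1_gene_13984. It had 16.7 normalized counts in P_BB and 13.5 in M_BB (interval 0.57 to 2.69). P_Bb was lowest with 2.13, although the study lists this gene as higher in *SB/Sb* workers.

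SINVm1_gene_10532, SINVm1_gene_10534 and SINVm1_gene_10535, which follow closely in the numbering of the official gene set, differed in direction. The first and second were 2.87-fold and 2.45-fold higher in P_BB, and the third was 3.30-fold higher in M_BB (2.50 to 4.38). SINVm1_gene_10535 had 68.7 normalized counts in P_BB, 227 in M_BB and 40.4 in P_Bb. The entries numbered between and beside them, SINVm1_gene_10531, SINVm1_gene_10533 and SINVm1_gene_10536, had at most 3 counts in each library. Their positions were not used here.

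Longer genes of the official gene set tended slightly toward M_BB. The median log2 ratio was 0.02 in the fifth with the shortest models and -0.07 in the fifth with the longest, and P_BB was above M_BB in 52.3% and 39.6% of their genes. The part of transcript length in the results above was not tested.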
